A study of Mus musculus with 59 samples.

Results

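The 7 genes *Prdm1*, *Tfap2c*, *Nanos3*, *Dppa3*, *Dnd1*, *Ifitm3* and *Kit*, of the 24391 genes listed in each library, were taken by symbol as the genes that specify primordial germ cells, the embryonic founders of eggs and sperm. RNA-seq levels were measured in 59 libraries of mouse embryonic stem cells (ESCs) and of embryoid bodies (EBs), suspension aggregates formed for 48 h after withdrawal of LIF and of the 3 inhibitors SU5402, PD184352 and CHIR99021, in which the ESCs had been kept on embryonic fibroblast feeders. All 6 lines carry ERT2-Cre, a recombinase that 4-hydroxytamoxifen (4-OHT) activates, and each gave ESCs and EBs without 4-OHT (controls) and with 4-OHT (mutants). The *Pcgf1* line was ERT2-Cre;Pcgf1f/f in its 4 control ESC and 5 control EB libraries and ERT2-Cre;Pcgf1delta/delta in its 5 mutant ESC and 5 mutant EB libraries, called *Pcgf1*-KO here. The *Ring1* point mutant line was ERT2-Cre;Ring1apm/pm;Ring1b without 4-OHT and ERT2-Cre;Ring1apm/pm;Ring1bpm/pm with it, with 2 libraries in each group. Its controls thus carry the catalytically dead RING1A too, and 4-OHT adds the dead RING1B. The other 4 lines were ERT2-Cre;Ring1a-/-;Ring1bf/f, whose controls also lack *Ring1a*, ERT2-Cre;Pcgf2f/f;Pcgf4f/f, ERT2-Cre;Pcgf3f/f;Pcgf5f/f and ERT2-Cre;Pcgf6f/f, with 2 libraries in each group and the delta/delta alleles after 4-OHT. The number of separate clones behind a line is not given in the sources used here.

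In the mouse embryo, BMP and WNT signals induce a small group of epiblast cells to become primordial germ cells. *Prdm1* (BLIMP1) represses the somatic programme in them, and with *Prdm14* and *Tfap2c* (AP2γ) it forms the core of the germ cell network. *Nanos3* and *Dnd1* encode RNA-binding proteins that keep the new cells alive, *Dppa3* (Stella) protects methylated DNA, *Ifitm3* (Fragilis) encodes a membrane protein that marks the precursors, and *Kit* is the receptor for the survival and migration signal KITL. Several of these genes are also active in naive ESCs, so their RNA alone does not identify a germ cell. PRC1 places ubiquitin on histone H2A through RING1A or RING1B, and its PCGF subunit names the sub-complex: the PCGF1 form is brought to unmethylated CpG-rich promoters by the CpG-binding KDM2B.

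Because CpG content is the feature by which the PCGF1 complex is known to reach promoters, the 250 bases before the annotated start of *Kit* and *Prdm1* are shown, 5′ to 3′ on the strand of each gene, with each CpG in capitals. They are from RefSeq on GRCm38.p6, *Kit* at chr5:75574737-75574986 on the + strand and *Prdm1* at chr10:44458749-44458998 on the - strand. Only the first entry listed for a gene was used, so a gene may have other starts that were not examined.
Kit: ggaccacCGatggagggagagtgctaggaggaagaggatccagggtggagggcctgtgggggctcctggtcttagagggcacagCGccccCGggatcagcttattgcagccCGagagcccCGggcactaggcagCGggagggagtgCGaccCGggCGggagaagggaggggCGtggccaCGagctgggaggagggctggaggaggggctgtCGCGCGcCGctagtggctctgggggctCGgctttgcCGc
Prdm1: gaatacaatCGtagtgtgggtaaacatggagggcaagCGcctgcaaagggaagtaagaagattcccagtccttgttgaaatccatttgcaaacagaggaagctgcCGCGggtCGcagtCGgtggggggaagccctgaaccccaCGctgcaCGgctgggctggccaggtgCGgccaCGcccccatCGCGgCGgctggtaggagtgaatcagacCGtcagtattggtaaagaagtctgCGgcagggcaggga
The *Kit* sequence held 17 CG pairs and 70.8% GC, and 76.4% of 27025 mouse promoters of the same length held fewer. *Prdm1* held 15 with 59.2% GC, more than 72.5% of promoters. *Nanos3* and *Ifitm3* held 3 each, against a median of 6 over all promoters, so the 4 matched members lay on both sides of the median. The CG pair reads the same on both strands, and these counts describe the sequence and say nothing of binding. *Tfap2c* and *Dppa3* had no matched promoter sequence, and *Dnd1* was left out without being looked up. On mm9, the build of the deposited data, *Kit* spans chr5:75970941-76052747 on the + strand, *Prdm1* chr10:44156983-44248307 on the - strand, *Tfap2c* chr2:172375093-172384122 on the + strand, *Dppa3* chr6:122576428-122580290 on the + strand, *Ifitm3* chr7:148195485-148196669 on the - strand and *Nanos3* chr8:86697632-86700451 on the - strand.

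Levels are in TPM, the share of a library's transcripts after correction for gene length, which sum to the same total in each library, so read depth is unknown and no counting interval can be given. *Pcgf1* RNA in the *Pcgf1* line ranged from 10.7 to 13.6 TPM in ESCs without 4-OHT and from 7.30 to 16.6 TPM in EBs without 4-OHT, against 0.627 to 2.77 TPM and 0.978 to 2.47 TPM with 4-OHT. *Rnf2* (RING1B) RNA stayed between 54.5 and 85.8 TPM in the *Ring1* point mutant line, where a point mutation cannot be checked from the level. In these lines *Fgf5*, a marker of the epiblast after the naive state, was 0 to 0.703 TPM in ESCs and 2.91 to 68.5 TPM in EBs, and *Klf4*, a naive marker, was 262 to 1664 TPM in ESCs and 3.54 to 122 TPM in EBs. In the other 4 lines the deposited name gives another condition than the label for 21 of 32 libraries. Of the 16 libraries labelled ESC in those lines, 7 fell within the EB range of *Fgf5*. Of the 16 labelled EB, 6 fell within the ESC range. Libraries deposited under ESC names had *Fgf5* at 0 to 0.816 TPM and *Klf4* at 120 to 766 TPM. Those deposited under EB names had *Fgf5* at 7.53 to 46.3 TPM and *Klf4* at 3.25 to 118 TPM. The deposited names thus went with these stage markers in every library, while the labels did not. As groups were taken from the labels, those lines are given by library with no comparison. No pair of libraries held the same values. The labels do not say that replicates are separate cultures, so p-values measure only the spread between these samples. Differences were tested with limma on log2(TPM + 0.1) over all detected genes, a scale that understates changes of low genes, and called at an adjusted p (Benjamini-Hochberg over all genes) under 0.05.

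In the unblocked fit, *Kit*, *Tfap2c* and *Prdm1* fell during EB formation of the *Pcgf1* line without 4-OHT, and no member was called higher. That is 3 of 7 members called lower, where 13.4% of all 20594 genes tested were lower, 11.5% higher and 24.9% called in either direction. The median change of the 7 was -1.09 on the log2 scale, against -0.0045 for all genes. A fit that also blocked on replicate number called 6 of 7 members and 43.9% of all genes, with *Dnd1* higher (below). Bulk RNA does not tell fewer cells of a type from less RNA per cell.

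*Kit* was 123, 186, 219 and 121 TPM in control ESC replicates 1 to 4, and 10.0, 14.1, 13.4, 20.9 and 18.9 TPM in control EB replicates 1 to 5. All EB libraries lay far below all ESC libraries, and *Kit* went from a level above 95.6% of listed genes in ESCs to one above 69.2% in EBs. The change of this receptor was -3.38 (log2, SE 0.32, limma adjusted p = 7.27e-07). *Tfap2c*, the AP2 transcription factor, was 52.3, 106, 106 and 58.1 TPM in control ESCs and 19.3, 21.7, 10.7, 27.8 and 27.7 TPM in control EBs. Its groups did not overlap either, and it changed by -1.91 (log2, SE 0.39, limma adjusted p = 0.00136). These 2 members were the ones whose EB libraries all lay below the ESC libraries, a pattern that 11.5% of all genes showed in that direction.

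*Prdm1*, the repressor of somatic genes, was 12.7, 20.6, 26.3 and 10.8 TPM in control ESCs and 5.65, 8.02, 5.88, 11.5 and 8.80 TPM in control EBs. The highest EB library, replicate 4, lay above the lowest ESC library, which is replicate 4 too, and the change was -1.09 (log2, SE 0.29, limma adjusted p = 0.00979). *Dppa3*, which guards DNA methylation, was 28.7, 9.34, 16.0 and 11.9 TPM in control ESCs and 21.1, 1.42, 3.47, 13.1 and 13.2 TPM in control EBs. Its groups overlapped and the change of -1.06 (log2) did not pass the test (limma adjusted p = 0.249).

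The RNA-binding factor *Nanos3* was near the floor, at 3.06, 1.74, 2.33 and 1.78 TPM in control ESCs and 1.18, 0, 0, 1.30 and 3.13 TPM in control EBs. It is listed at 0 in replicates 2 and 3 of the EBs, and the fitted change of -2.0 (log2, limma adjusted p = 0.187) depends on the 0.1 added before the log. *Dnd1*, which acts with NANOS proteins on RNA, was 6.70, 7.51, 7.73 and 15.6 TPM in control ESCs and 11.2, 9.08, 10.4, 16.5 and 17.2 TPM in control EBs, a change of 0.49 (log2, limma adjusted p = 0.186). *Ifitm3* had the highest mean TPM of the members in both control groups, although *Kit* was higher in control ESC replicates 2 and 3. *Ifitm3* was 364, 143, 114 and 366 TPM in control ESCs and 229, 100.2, 77.9, 285 and 308 TPM in control EBs, a change of -0.31 (log2, limma adjusted p = 0.725). The groups of *Dnd1* and of *Ifitm3* overlapped, with replicate 4 highest for *Dnd1* in ESCs and replicates 2 and 3 lowest for *Ifitm3* at both stages. Without control ESC replicate 4, *Dnd1* rose by 0.76 (log2, limma adjusted p = 0.0259).

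**Figure D1:**
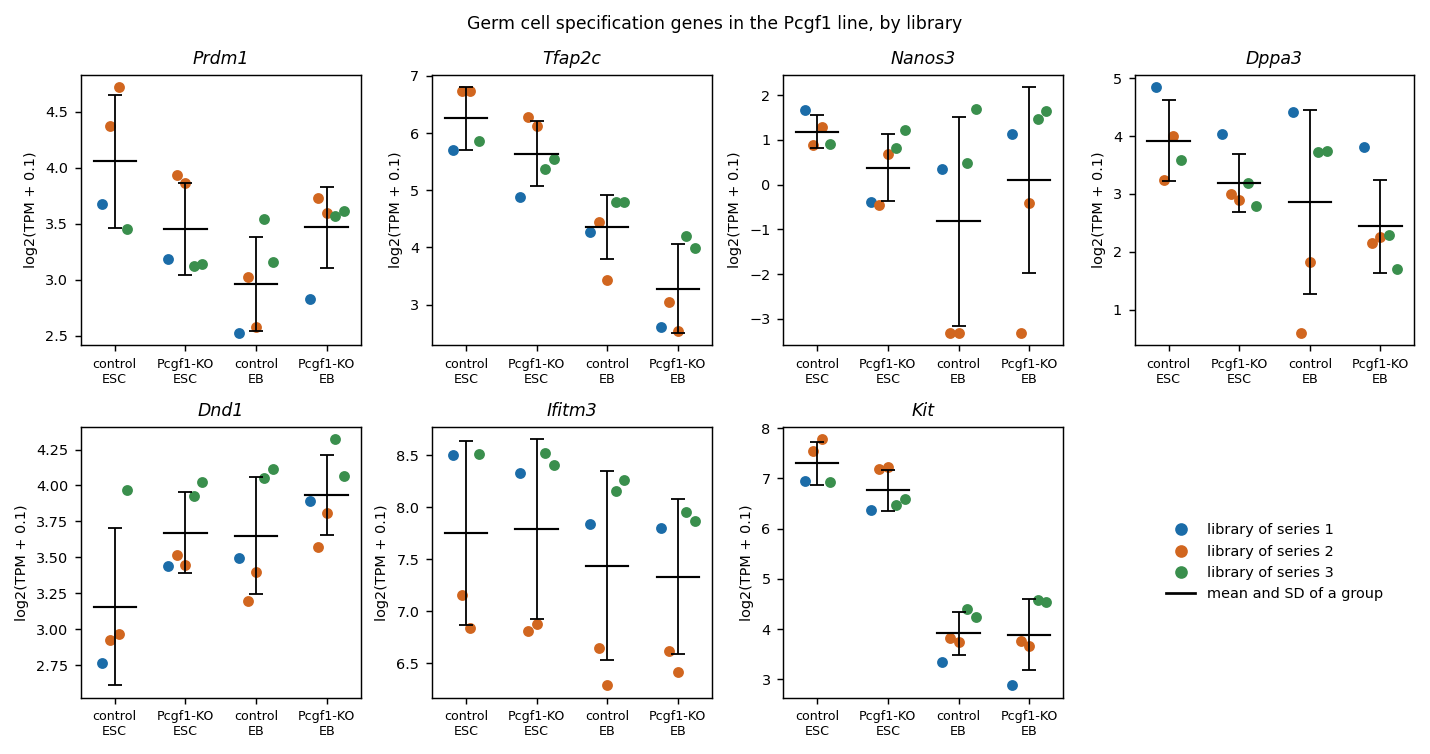
Level of each member in the 19 libraries of the *Pcgf1* line, as log2(TPM + 0.1) on the vertical axis, by group on the horizontal axis. Points are libraries coloured by library series, bars are the mean and SD of the group (n = 4 control ESC, 5 in each other group). *Kit* and *Tfap2c* separate ESCs from EBs, whereas *Ifitm3* and *Dnd1* separate by series.

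Headers in the deposited data place the 19 libraries in 3 series: replicate 1 in series 1, replicates 2 and 3 in series 2, and replicates 4 and 5 in series 3. *Ifitm3* was 77.9 to 143 TPM in all libraries of series 2, against 223 to 364 TPM in series 1 and 234 to 368 TPM in series 3. *Dnd1* was 15.1 to 19.9 TPM in series 3, against 6.70 to 14.8 TPM in series 1 and 7.51 to 13.9 TPM in series 2. For *Ifitm3* the range of series 2 thus lay wholly below those of the other series at either stage, and for *Dnd1* that of series 3 lay wholly above. Within the series 1, 2 and 3, the stage change of *Kit* was -3.61, -3.87 and -2.60 (log2), that of *Tfap2c* was -1.44, -2.79 and -1.06, and that of *Prdm1* was -1.16, -1.75 and -0.11. The fall of *Kit* was present in each, and the fall of *Prdm1* was small in series 3. *Dnd1* changed by 0.73, 0.35 and 0.11 (log2) within the series 1, 2 and 3.

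Replicate numbers were taken to pair the samples of the line. A fit that blocked on them called 6 of 7 members and 43.9% of all genes. *Ifitm3* fell by 0.48 (log2, limma adjusted p = 0.000275 with the block) and was lower in 4 of 4 pairs. *Nanos3* fell by 2.41 (log2, limma adjusted p = 0.0173) and was also lower in 4 of 4 pairs, again with 2 EB libraries listed at 0. *Dnd1* rose by 0.41 (log2, limma adjusted p = 0.0172) and was higher in 4 of 4 pairs. *Dppa3* was lower in 3 of 4 pairs and stayed above the threshold at a limma adjusted p of 0.0763. Without series 2, 2 members were called, *Kit* and *Ifitm3*, where 18.5% of all genes were, while *Tfap2c* was at -1.16 (log2, limma adjusted p = 0.0804) and *Prdm1* at -0.49 (limma adjusted p = 0.332). The feeder fibroblast markers moved with the stage, with a summed level of 194 to 283 TPM in the control ESC libraries that fell to a range of 24.3 to 45.5 TPM in the control EB libraries. Of the 8 markers 5 fell and 2 rose, *Dcn* by 4.51 (limma adjusted p = 0.00135) and *Thy1* by 2.29 (limma adjusted p = 3.96e-05), and their part in these results was not tested.

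With 4-OHT, the same change of stage called 2 of 7 members lower, *Kit* and *Tfap2c*, where 10.2% of all genes were lower and 18.3% called in either direction. *Kit* was 82.1, 145, 149, 87.9 and 95.5 TPM in *Pcgf1*-KO ESCs and 7.26, 13.5, 12.5, 23.9 and 23.2 TPM in *Pcgf1*-KO EBs. The groups lay well apart, and the change was -2.87 (log2, SE 0.30, limma adjusted p = 2.31e-06). *Tfap2c* was 29.5, 77.3, 69.5, 41.2 and 46.8 TPM in *Pcgf1*-KO ESCs and 6.02, 8.12, 5.74, 18.4 and 15.8 TPM in *Pcgf1*-KO EBs. As for *Kit*, the groups did not overlap, a separation that 8.56% of all genes showed in that direction, and the change was -2.36 (log2, SE 0.37, limma adjusted p = 0.000152).

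*Prdm1* was 9.02, 15.2, 14.4, 8.63 and 8.72 TPM in *Pcgf1*-KO ESCs and 6.99, 13.2, 12, 11.8 and 12.1 TPM in *Pcgf1*-KO EBs. The ranges lay over each other, and the change was 0.02 (log2, limma adjusted p = 1). *Dppa3* was 16.3, 7.91, 7.37, 9.06 and 6.82 TPM in *Pcgf1*-KO ESCs and 14, 4.35, 4.66, 4.80 and 3.15 TPM in *Pcgf1*-KO EBs. Replicate 1 was the highest in both groups, and the change of -0.74 (log2) missed the threshold (limma adjusted p = 0.452) although it was lower in 5 of 5 pairs. *Ifitm3* was lower in 5 of 5 pairs at -0.46 (log2, limma adjusted p = 0.608, and 0.000288 with the replicate block, which called 3 of 7 members and 36.8% of all genes). *Dnd1* was higher in 5 of 5 pairs at 0.26 (log2, limma adjusted p = 0.533), and *Nanos3* was at -0.27 (log2, limma adjusted p = 0.934). The feeder marker sum was 148 to 225 TPM in *Pcgf1*-KO ESCs and 7.64 to 13.9 TPM in *Pcgf1*-KO EBs, with *Lum* at 0 in those EBs.

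Loss of *Pcgf1* in ESCs called 0 of 7 members with limma, where 0.641% of all genes were called, and 0 of 7 at an unadjusted p under 0.05, where 8.63% of all genes passed. The mean of *Kit* was 162 ± 48.5 TPM in controls (SD, n = 4) and 112 ± 32.3 TPM in *Pcgf1*-KO ESCs (SD, n = 5), a change of -0.54 (log2, limma adjusted p = 0.731). *Tfap2c* averaged 80.7 ± 29.6 TPM (n = 4) and 52.9 ± 20.0 TPM (n = 5), a change of -0.62 (limma adjusted p = 0.758). *Prdm1* averaged 17.6 ± 7.17 TPM (n = 4) and 11.2 ± 3.31 TPM (n = 5), a change of -0.61 (limma adjusted p = 0.585). These 3 members, with *Dppa3* at -0.73 and *Nanos3* at -0.81, were each lower in 4 of 4 pairs of replicates, but 0 of 7 members had groups that did not overlap, where 4.66% of all genes did. *Dnd1* was at 0.51 and higher in 3 of 4 pairs, and *Ifitm3* was at 0.04.

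In EBs, loss of *Pcgf1* called 0 of 7 members with limma, where 1.95% of all genes were called. At an unadjusted p under 0.05 there were 1 member, *Tfap2c*, and 12% of all genes. *Tfap2c* averaged 21.4 ± 7.06 TPM in control EBs and 10.8 ± 5.88 TPM in *Pcgf1*-KO EBs (SD, n = 5 each). It was lower in 5 of 5 pairs, at -1.07 (log2, SE 0.37, limma adjusted p = 0.179), and within the 3 series at -1.66, -1.15 and -0.70. With library series blocked the limma adjusted p was 0.0412, and with replicates blocked it was 0.053. The share of all genes called with either block is not given for this comparison. *Prdm1* averaged 7.97 ± 2.40 TPM and 11.2 ± 2.41 TPM (n = 5 each) and was higher in 5 of 5 pairs, at 0.50 (log2, limma adjusted p = 0.534). *Kit* averaged 15.5 ± 4.42 TPM and 16.1 ± 7.22 TPM (n = 5 each), a change of -0.03. *Nanos3* was at 0.93, *Dppa3* at -0.42, *Dnd1* at 0.28 and *Ifitm3* at -0.11 (log2), all with limma adjusted p of 0.767 or more. A test of whether the effect of the loss differed between EBs and ESCs called 0 of 7 members with limma and 0.00486% of all genes, or 1 of 7 and 5.8% at an unadjusted p under 0.05. That member was *Prdm1*, at 1.11 (log2, SE 0.40, limma adjusted p = 0.689).

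**Figure D2:**
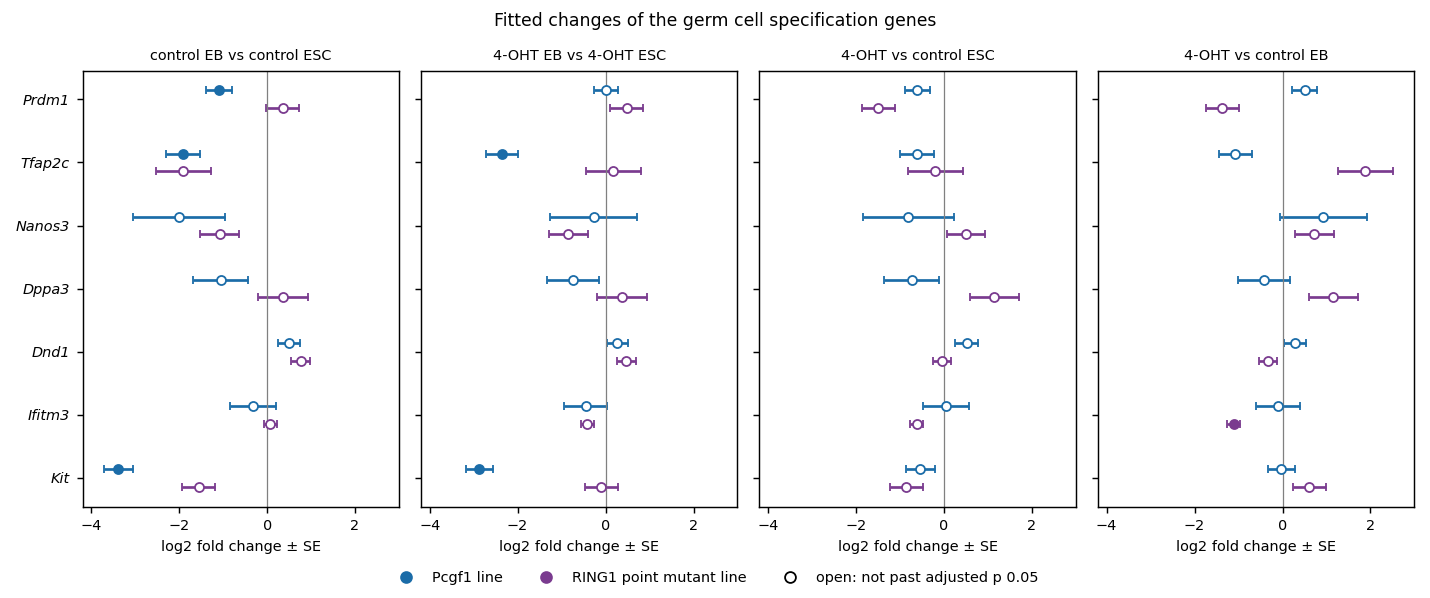
Fitted log2 fold change of each member with its standard error, in 4 panels for the 4 comparisons and with both tested lines in each. *Kit* and *Tfap2c* lie below 0 in both stage panels for the *Pcgf1* line, and the symbols mark which line and which calls past the threshold.

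The other genes of germ cell induction moved in several directions during EB formation of the *Pcgf1* line without 4-OHT. Of 9 inducing ligands, receptors and SMADs, 1 rose and 1 fell: *Wnt3*, a WNT ligand, at 2.57 (log2, limma adjusted p = 0.0375) and *Bmp2*, a BMP ligand, at -2.01 (limma adjusted p = 0.0103). Of 11 further regulators 2 rose, *Otx2*, which restrains germ cell entry, at 2.18 and *Lin28a*, which blocks let-7, at 1.43. Another 3 fell, *Prdm14* at -3.27 (limma adjusted p = 0.00102), *Esrrb* at -2.73 and *Nanog* at -2.12. *Prdm14*, the partner of *Prdm1* in the core network, was thus among the regulators that fell. Of 4 migration and survival genes *Cxcl12*, a guidance chemokine, rose by 3.84 and *Alpl*, the classical alkaline phosphatase marker, fell by 1.76. Of 6 later germ cell genes only *Mael*, a piRNA factor, rose, by 1.51. Of 15 paralogues of the members 5 fell, among them *Tfap2a* at -1.34 and the KIT relatives *Pdgfrb* at -2.97 and *Csf1r* at -1.84, and *Pdgfrb* is also a feeder marker. The medians of these lists lay between -0.28 and 0.28, whereas the 9 naive markers all fell (median -3.01) and the 6 epiblast markers all rose (median 4.94).

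After loss of *Pcgf1*, 2 genes of these germ cell lists were called in ESCs. *Bmp4*, the main inducing ligand, had a mean of 1.93 ± 0.240 TPM in controls (SD, n = 4) and of 8.20 ± 2.06 TPM in *Pcgf1*-KO ESCs (SD, n = 5), a change of 2.00 (log2, limma adjusted p = 0.0366). *Otx2* fell by 2.18 (limma adjusted p = 0.00522). In EBs *Cxcl12* fell by 2.06 (limma adjusted p = 0.0047), the KIT relative *Pdgfra* rose by 2.11, and 2 naive markers, *Tfcp2l1* and *Nr0b1*, rose by 1.52 and 1.26. Of 6 primitive endoderm markers 2 rose, *Gata6* by 2.60 and *Gata4* by 1.40 (list median 1.48 against 1.26 for the naive list), and *Pdgfra* is known in that lineage too. *Kitl*, the ligand of KIT, was at most 1.14 TPM in any library of the line, and its EB minus ESC difference was 0.92 in *Pcgf1*-KO cells (log2, limma adjusted p = 0.169).

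In the *Ring1* point mutant line the 2 libraries in a group limit each test. EB formation without 4-OHT called 0 of 7 members with limma, where 4.73% of all genes were called. At an unadjusted p under 0.05 there were 4 members and 20.3% of all genes. *Kit* was 75.4 and 84.1 TPM in control ESCs and 18.1 and 40.1 TPM in control EBs, a change of -1.56 (log2, SE 0.37, limma adjusted p = 0.0608). *Tfap2c* was 25.4 and 41.2 TPM in control ESCs and 4.90 and 14.9 TPM in control EBs, a change of -1.90 (SE 0.62, limma adjusted p = 0.14). Both lay lower in every EB library, but replicate 1 of the EBs was far below replicate 2 for each. *Dnd1* was 12 and 11 TPM in control ESCs and 19.4 and 19.5 TPM in control EBs, a change of 0.76 (limma adjusted p = 0.0918). *Prdm1*, low here at 2.51 and 3.37 TPM in control ESCs and 3.18 and 4.43 TPM in control EBs, was at 0.36 (limma adjusted p = 0.646). *Nanos3* was at -1.08, *Dppa3* at 0.36 and *Ifitm3* at 0.07 (log2). Of the 7 members 4 had groups that did not overlap, near the 46% of all genes. Same-numbered libraries of this line were also taken as pairs. With the replicate block 3 of 7 members and 9.95% of all genes were called: *Tfap2c* (limma adjusted p = 0.00509), *Kit* (0.0206) and *Dnd1* (0.0413).

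With 4-OHT, ESCs had *Kit* at 44.4 and 43.5 TPM, and EBs at 32.1 and 52.7 TPM. ESCs had *Tfap2c* at 19.3 and 41.3 TPM, and EBs at 21.9 and 46.7 TPM. The ESC and EB values of both genes overlapped, with changes of -0.10 and 0.18 (log2). Limma called 0 of 7 members in this comparison, where 0.133% of all genes were called. At an unadjusted p under 0.05 there were 1 member and 9.73% of all genes. The test of whether the 4-OHT effect differed between EBs and ESCs called 0 of 7 with limma and 0.00986% of all genes, or 2 of 7 and 5.31% at an unadjusted p under 0.05. *Tfap2c* was at 2.08 (log2, limma adjusted p = 0.921) and *Kit* at 1.46 (limma adjusted p = 0.765).

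In ESCs of this line 4-OHT called 0 of 7 members with limma, where 2.54% of all genes were called. At an unadjusted p under 0.05 there were 2 members and 16.7% of all genes. *Prdm1* was 2.51 and 3.37 TPM in control ESCs and 0.95 and 0.99 TPM in point mutant ESCs. Both mutant libraries lay below both controls, at -1.49 (log2, SE 0.38, limma adjusted p = 0.0906). *Ifitm3* was at -0.62 (limma adjusted p = 0.0762), *Kit* at -0.86 (limma adjusted p = 0.305) and *Dppa3* at 1.14 (limma adjusted p = 0.378). With the replicate block 2 of 7 members and 6.54% of all genes were called, *Ifitm3* (limma adjusted p = 0.0355) and *Prdm1* (0.0371). The median of all genes was shifted by 0.12 in this comparison and by 0.10 in the EBs, so the members' changes stand about that much lower when measured from it.

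In EBs 4-OHT called 1 of 7 members, *Ifitm3*, which fell, where 0.764% of all genes were called lower and 4.53% in either direction. *Ifitm3* was 89.8 and 86.4 TPM in control EBs and 37.9 and 43.9 TPM in point mutant EBs, a change of -1.11 (log2, SE 0.15, limma adjusted p = 0.0138). Both mutant libraries lay below both controls, as they did in ESCs, at 81.0 and 86.7 TPM against 49.1 and 60.2 TPM. The call was lost with only the EB groups in the fit (limma adjusted p = 0.0537) and when any 1 of the 4 EB libraries was left out (0.0603 to 0.0962), with changes between -1.21 and -1.0.

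Among the other members, *Tfap2c* was 4.90 and 14.9 TPM in control EBs and 21.9 and 46.7 TPM in point mutant EBs, at 1.89 (log2, SE 0.62, limma adjusted p = 0.136). *Prdm1* was 3.18 and 4.43 TPM in control EBs and 1.18 and 1.64 TPM in point mutant EBs, at -1.37 (limma adjusted p = 0.089). *Dppa3* was 13.7 and 4.77 TPM in control EBs and 17.4 and 19.1 TPM in point mutant EBs, at 1.16 (limma adjusted p = 0.304). For each of these 3 the mutant libraries lay on one side of the controls, as for 6 of the 7 members, where 43.7% of all genes did so. *Kit* was at 0.61, *Nanos3* at 0.73 and *Dnd1* at -0.33 (log2), with groups of *Kit* that overlapped. With the replicate block 3 of 7 members and 10.1% of all genes were called: *Ifitm3* (limma adjusted p = 0.00691), *Tfap2c* (0.00721) and *Prdm1* (0.0372). The feeder marker sum ranged from 30.1 to 33.8 TPM without 4-OHT and from 72.4 to 72.8 TPM with it, 3 of its 8 genes were called higher, and its part in these values was not tested. Other markers moved as well. Of 5 trophoblast markers tested, a lineage that also uses *Tfap2c*, 2 rose (*Hand1* by 3.10 and *Gata3* by 2.70), with a summed level of 9.17 to 14.9 TPM in control and 22.2 to 27.6 TPM in point mutant EBs and *Tpbpa* at 0 in both. Of 6 mesoderm markers 2 rose (*T* and *Mesp1*), and of 6 epiblast markers 3 fell and 1 rose (median -1.85). Their part was not tested either.

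**Figure D3:**
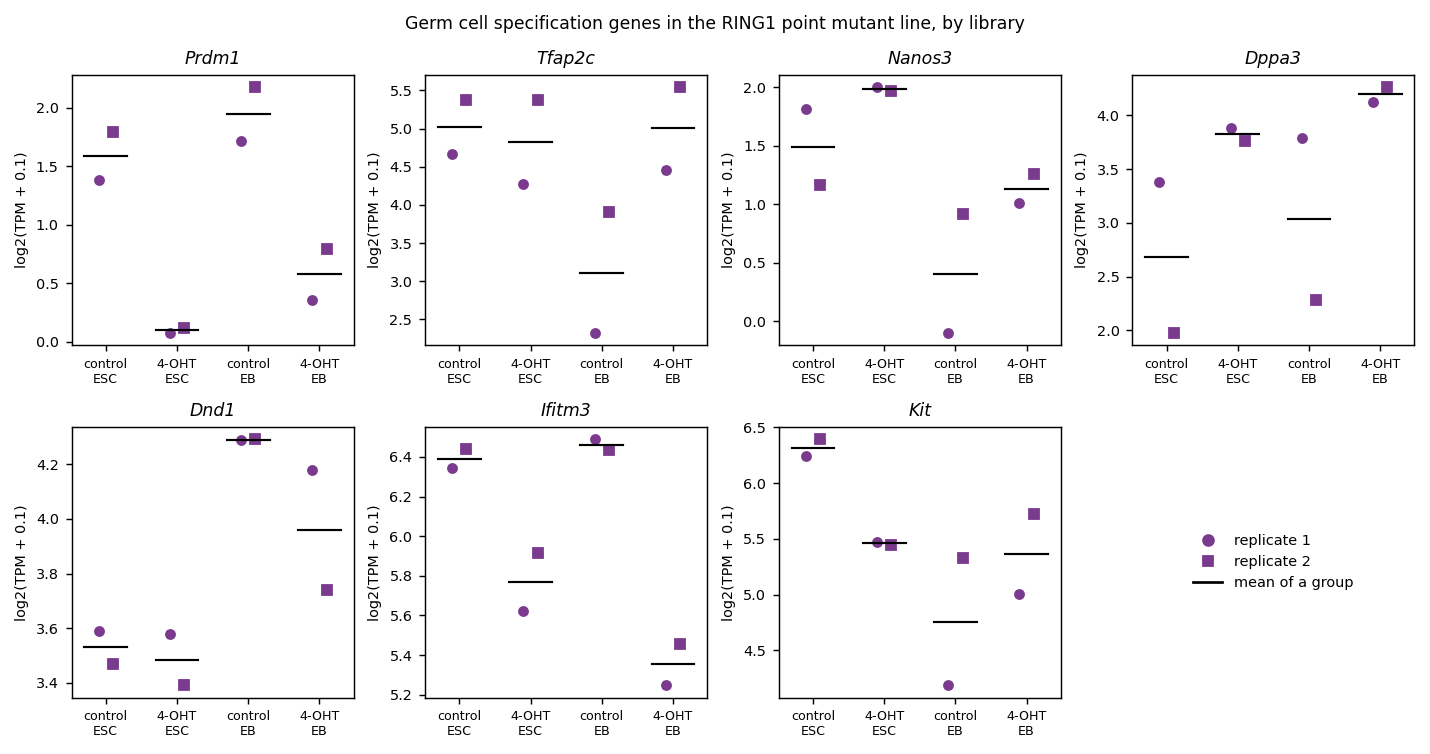
TPM of each member in the 8 libraries of the *Ring1* point mutant line, by group. Circles are replicate 1, squares replicate 2 and the bar the mean of their log2 values. *Ifitm3* lies lower in both 4-OHT groups than in both control groups.

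In the *Ring1* point mutant line, later germ cell genes were among those called after 4-OHT. Of 6 later germ cell genes 3 were higher in ESCs, where 2.34% of all genes were: *Ddx4*, an RNA helicase of the germ line, was 16.0 ± 3.92 TPM in control and 81.7 ± 12.9 TPM in point mutant ESCs (SD, n = 2 each), at 2.36 (log2), with *Mael* at 2.68 and *Tex101*, a germ cell surface protein, at 3.06. In EBs these 3 genes rose too, by 1.82, 1.38 and 3.33, where 3.76% of all genes were called higher. The list had a median of 1.21 in ESCs and 1.34 in EBs, where all genes had 0.12 and 0.10. Lists of other cell types had medians as high or higher in the same comparisons: primitive endoderm 2.01 in ESCs and 1.37 in EBs, trophoblast 1.52 and 2.64, and mesoderm 1.45 and 1.86. *Kitl* rose in ESCs by 2.73 (limma adjusted p = 0.0329), from 0.438 ± 0.233 TPM to 3.29 ± 0.0237 TPM (SD, n = 2 each). In EBs 2 of 9 inducing genes rose, *Bmp2* by 2.28 and *Bmp4* by 1.18 (limma adjusted p = 0.0172). Of the regulators *T*, a mesoderm factor, rose by 2.88 and *Nanog* by 1.16, and *Otx2* fell by 2.04. Of the paralogues *Ifitm1*, of the same family as *Ifitm3*, fell by 1.84 (limma adjusted p = 0.0295), and *Ifitm2* was at -1.06 (limma adjusted p = 0.0507).

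Effects of 4-OHT were compared between the *Pcgf1* and *Ring1* point mutant lines by a test of the difference itself. In EBs 2 of 7 members were called, where 2.14% of all 21378 genes tested were. *Tfap2c* differed by -2.96 (log2, *Pcgf1* line minus point mutant line, SE 0.75, limma adjusted p = 0.038), and *Prdm1* by 1.87 (SE 0.49, limma adjusted p = 0.0476). *Tfap2c* thus lay at -1.07 with loss of *Pcgf1* and at 1.89 with the point mutation, and *Prdm1* at 0.50 and -1.37. None of these 4 single changes was called in the main fit, which had no block and no added scaling. Neither call held in every fit, since leaving out 1 library at a time kept the limma adjusted p under the threshold in 5 of 14 fits for *Tfap2c* (0.0201 to 0.328, the highest without point mutant line control EB replicate 1) and 3 of 14 for *Prdm1* (0.0273 to 0.196, the highest without that line's mutant EB replicate 1). With the replicate block 3 of 7 members and 7.66% of all genes were called, *Tfap2c* (limma adjusted p = 0.00482), *Prdm1* (0.00959) and *Ifitm3*. In ESCs 0 of 7 members were called, where 0.968% of all genes were, and 0 at an unadjusted p under 0.05, where 10.3% of all genes passed. For EB formation without 4-OHT 0 of 7 were called with limma and 3.48% of all genes, or 2 of 7 and 17.4% at an unadjusted p under 0.05, with *Kit* at -1.82 (limma adjusted p = 0.0859, and 0.0409 without point mutant line control EB replicate 1) and *Prdm1* at -1.45 (limma adjusted p = 0.121). The replicate block called 3 of 7 members and 18.7% of all genes there, *Kit* (limma adjusted p = 0.0101), *Prdm1* (0.0223) and *Ifitm3*. Whether both lines were prepared together is not given in the sources used here, so line and preparation cannot be told apart.

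The remaining 4 lines are described by library under their labels. In the Ring1a-/-;Ring1bf/f line *Kit* was 108 and 112 TPM in libraries labelled control ESC and 38.9 and 39.6 TPM in those labelled mutant EB, where name and label agree. It was 24.5 and 25.6 TPM in those labelled mutant ESC, deposited as control EB, and 71.6 and 71.1 TPM in those labelled control EB, deposited as mutant ESC. Both replicates were close to each other throughout. *Tfap2c* in the same order was 74.9 and 78.4 TPM, 49.5 and 50.7 TPM, 16.2 and 12.9 TPM, and 45.9 and 51.8 TPM. *Dppa3* reached 177 and 188 TPM in the libraries labelled control EB and deposited as mutant ESC, its highest values in any of the 59 libraries. Those libraries had *Klf4* at 665 and 709 TPM and *Fgf5* at 0.540 and 0.791 TPM. *Dppa3* was 48.7 and 61.4 TPM in the libraries labelled control ESC. *Prdm1* was highest in the libraries labelled control ESC, at 13.7 and 13.8 TPM, and lowest in those labelled mutant EB, at 2.52 and 2.79 TPM.

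In the Pcgf2f/f;Pcgf4f/f and Pcgf6f/f lines *Kit* and *Tfap2c* split by replicate number, not by label. *Kit* was 41.9 to 53.1 TPM in the 4 libraries of replicate 1 of the first line and 7.43 to 9.05 TPM in the 4 of replicate 2. In the second it was 39.8 to 52.8 TPM and 6.52 to 15.5 TPM. *Tfap2c* split in the same way, 53.1 to 70.6 TPM against 15.3 to 19.5 TPM in the first line and 21.3 to 25.5 TPM against 9.99 to 13.8 TPM in the second. In both lines all 4 libraries of replicate 1 are deposited under ESC names and all 4 of replicate 2 under EB names. *Nanos3* reached its highest values here, 7.83 to 13.0 TPM in replicate 1 of the first line and 16.8 TPM in the library of the second labelled mutant EB replicate 1. In the Pcgf3f/f;Pcgf5f/f line *Kit* was 83.4 and 80.9 TPM in libraries labelled control ESC, 82.1 and 23.9 TPM in those labelled mutant ESC, 22.5 and 14.7 TPM in those labelled control EB, and 16.8 and 80.8 TPM in those labelled mutant EB. Replicate 2 of both mutant groups is deposited under a name of the other stage. *Tfap2c* differed less there, at 38.2 to 65.2 TPM over all 8.

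**Figure D4:**
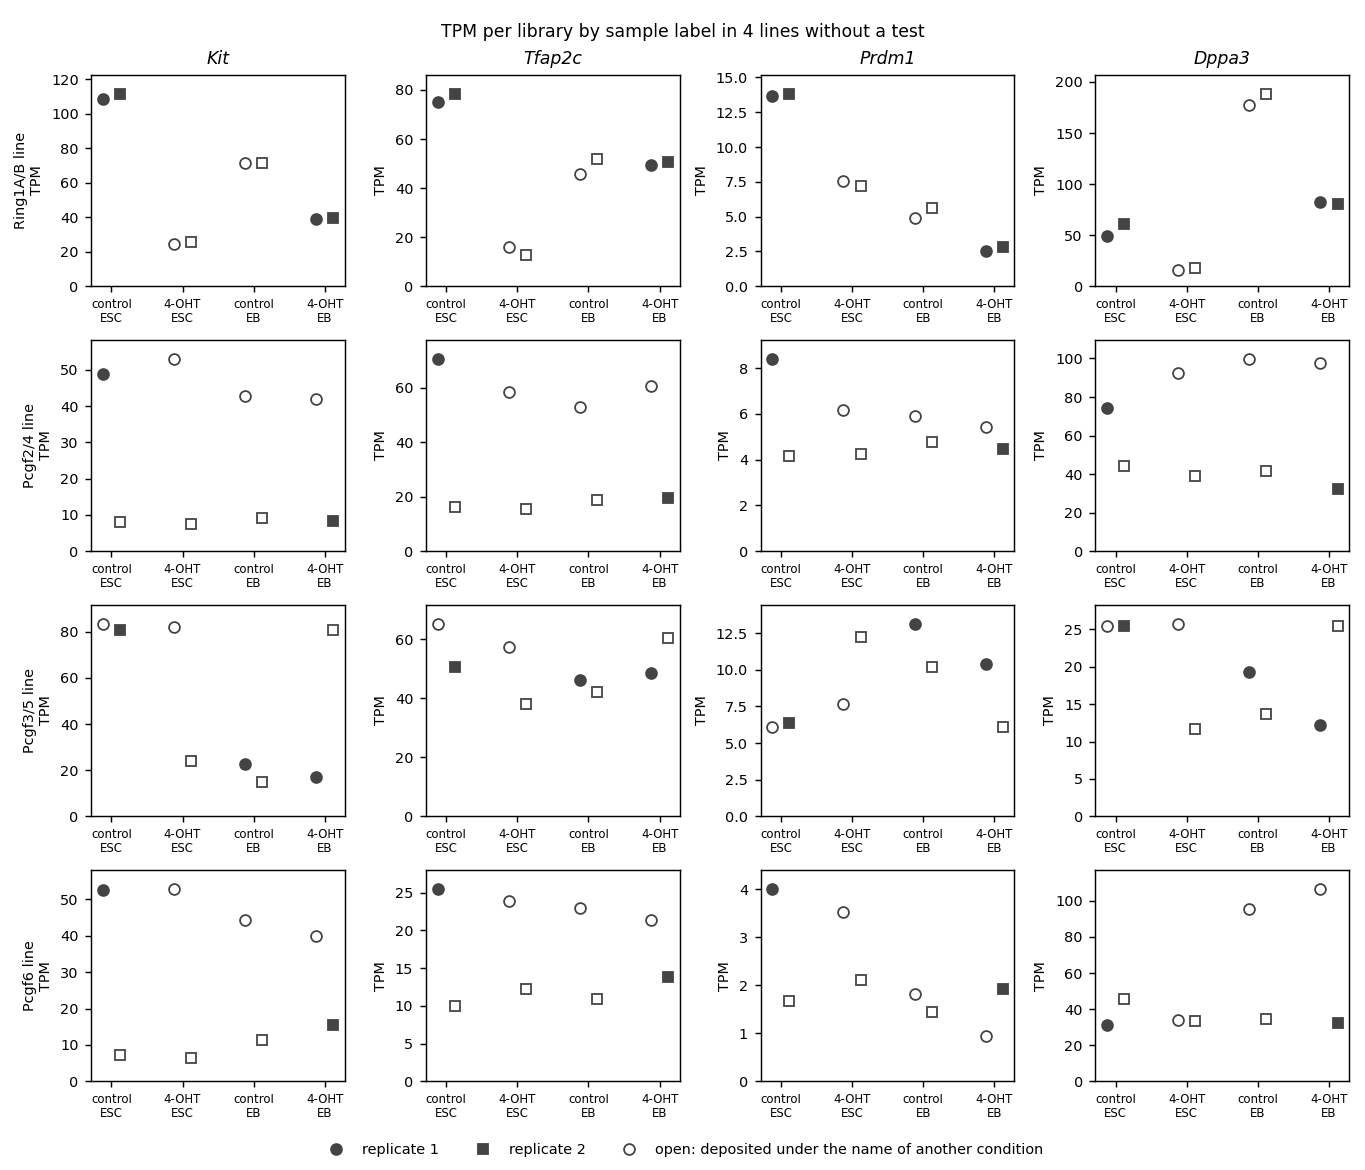
TPM of *Kit*, *Tfap2c*, *Prdm1* and *Dppa3* in the 32 libraries of the other 4 lines by labelled group, each point a library. Open points are libraries deposited under the name of another condition. In several groups the 2 libraries of a label lie far apart. An example is *Kit* at 48.9 and 8.17 TPM in libraries labelled control ESC of the Pcgf2f/f;Pcgf4f/f line, the second deposited as control EB.

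Over the 19 libraries of the *Pcgf1* line, Pearson r of log2(TPM + 0.1) was highest between *Kit* and *Zbtb44* (0.988), *Nmnat2* (0.988) and *Slc30a2* (0.986) among 13399 genes. In the 8 libraries of the *Ring1* point mutant line these r were 0.915, 0.295 and 0.741, so the likeness of *Zbtb44* was also high there. *Tfap2c* was most like *Slc11a1* (0.969), with -0.0146 in the point mutant line. *Prdm1* was most like *Lima1* (0.95), with 0.619 in the point mutant line. *Ifitm3* was most like *Sdhc* (0.986), and *Dnd1* most like *Pgls* (0.93), with 0.119 and 0.0938 in the point mutant line. *Nanos3* was most like *Coq10a* (0.899) and *Dppa3* most like *Pgk1* (0.858), with -0.727 and -0.427 there. Among the members themselves, *Tfap2c* and *Kit* had the highest r (0.915), followed by *Nanos3* and *Ifitm3* (0.669) and *Prdm1* and *Kit* (0.65). The libraries of the *Pcgf1* line differ in stage, 4-OHT treatment and library series, which an r value does not separate, so the r values are descriptions.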

How the data were processed

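Levels are the TPM that the authors deposited for 24391 genes in each of 59 libraries. Per the sources used here, single-end reads were aligned to mm9 with STAR 2.5.2b and counted on exons, and the authors tested counts with DESeq2. The step from counts to TPM is not described, and each library sums to the same total, so depth is unknown.

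Groups were taken from the labels, never from deposited names. Where title and characteristics gave different replicate numbers (1 library), the title was used. The members, the gene lists and the tests were chosen with earlier results of these data known. The 7 members were named in every comparison. Called genes of the fixed lists were named up to 6 per list, and for each member up to 3 genes of highest Pearson r.

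Genes above 0 TPM in at least 1 library of a line were fitted on log2(TPM + 0.1) with limma 3.58.1 in R 4.3.3 (a mean per group, moderated variance with trend, Benjamini-Hochberg over all genes, threshold 0.05). The test was run on simulated data with independent noise and no series or replicate effect, so that check does not cover such effects. Tables and plots used Python 3.11.15 with numpy 2.4.6, pandas 2.3.3 and matplotlib 3.10.9. Deviations of same-numbered libraries from their group means correlated at 0.32 to 0.65 over all 27 pairs in the *Pcgf1* line. In the point mutant line they correlated at 0.11 to 0.38 over all 12, where each value counts for both replicate numbers because the libraries of a group mirror each other. Replicate numbers were taken to pair samples, which this check cannot establish. Different-numbered libraries were not compared, and replicate numbers of the *Pcgf1* line are nested in library series.

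The alternatives were a pseudocount of 1, a mean of at least 1 TPM, median-of-ratios and quantile scaling, a block for replicate number or library series, only the groups compared, and leaving out each library.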

Additional observations from a re-analysis of the deposited data

Results flagged for a closer look

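In 4 of the 28 sets of a member and a group of the *Pcgf1* line, 1 library stood apart from the rest (the gap to its nearest neighbour, over the range of the group, exceeded Dixon's 95% limit). Chance flags about 1 in 20 groups. *Dnd1* was 15.6 TPM in control ESC replicate 4, where the next library was at 7.73 TPM. *Dppa3* was 16.3 TPM in *Pcgf1*-KO ESC replicate 1 against 9.06 TPM for the next, and 14 TPM in *Pcgf1*-KO EB replicate 1 against 4.80 TPM. *Prdm1* was lowest in *Pcgf1*-KO EB replicate 1, at 6.99 TPM, where the next was at 11.8 TPM. Of these, 3 are in replicate 1, the only replicate of series 1. The *Dnd1* library is the only control ESC library of series 3, where *Dnd1* ranged from 15.1 to 19.9 TPM over both stages.

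The effect of 4-OHT in EBs differed between the *Pcgf1* and *Ring1* point mutant lines in a test of the difference for *Prdm1*, by 1.87 (log2, limma adjusted p = 0.0476), and for *Tfap2c*, by -2.96 (log2, limma adjusted p = 0.038). Leaving out 1 library at a time kept these calls in 3 of 14 fits for *Prdm1* and 5 of 14 for *Tfap2c*, and *Prdm1* was not called with a pseudocount of 1 (limma adjusted p = 0.0722) or a mean of at least 1 TPM (0.0580).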

How the results depend on the processing

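Over the alternatives, 174 of 211 counts of called members stayed within 1.5 times the main count and 37 moved. Of 1166 member log2 fold changes, 1042 kept direction and side of the threshold, 29 were no longer past it, 29 newly passed it and 66 changed sign, 0 of these past the threshold in either fit. Fits without a library series were chosen after seeing the data. Depth is unknown, and leaving out a library of the point mutant line leaves 1 library in a group, assumed to vary like the other groups. The cause of each change below was not tested.

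With the replicate block, control EB against control ESC called 6 members and 43.9% of all genes in the *Pcgf1* line (6 members also with the series block). It called 3 members and 9.95% of all genes in the point mutant line, where only 2 replicate numbers exist. In that line the block called 2 members and 6.54% of all genes in the 4-OHT ESC comparison, and 3 and 10.1% in the 4-OHT EB comparison. Between lines it called 3 members and 18.7% of all genes for control EB against control ESC. The *Pcgf1* loss in EBs called 1 member with the series block. No share of all genes called is given here for fits with the series block, a pseudocount of 1, a mean of at least 1 TPM or another scaling. Their counts of members thus cannot be read against all genes. In the point mutant line, control EB against control ESC called 1 with a mean of at least 1 TPM and 1 with median-of-ratios scaling, the 4-OHT ESC comparison called 1 with median-of-ratios and 1 with quantile scaling, and the 4-OHT EB comparison called 2 with quantile scaling, 0 with only the groups compared and 0 to 0 without single libraries. Between lines, control EB against control ESC called 1 with median-of-ratios and 1 with quantile scaling and 0 to 1 without single libraries, the 4-OHT ESC comparison called 1 with quantile scaling, and the 4-OHT EB comparison called 1 with a pseudocount of 1, 1 with a mean of at least 1 TPM and 0 to 1 without single libraries.

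Signs changed for these log2 values in the *Pcgf1* line. In *Pcgf1*-KO EB against ESC, *Prdm1* was -0.28 without series 3 and -0.065 to 0.18 without single libraries, and *Nanos3* was 0.078 with a pseudocount of 1, 0.87 without series 2 and -0.65 to 0.59 without single libraries. In the ESC comparison of *Pcgf1* loss, *Ifitm3* was -0.13 with either block, -0.090 without series 2, -0.16 without series 3 and -0.27 to 0.29 without single libraries. In EBs, *Dppa3* was 0.46 and *Ifitm3* 0.022 without series 3, *Ifitm3* was -0.39 to 0.12 without single libraries, and *Kit* was 0.0034 and 0.0090 with median-of-ratios and quantile scaling, 0.080 and 0.0073 without series 1 and 2 and -0.20 to 0.22 without single libraries. For the EB minus ESC effect, *Ifitm3* was 0.022 with the replicate block, 0.024 with the series block and -0.43 to 0.16 without single libraries, and *Dppa3* -0.25 to 0.70. In the point mutant line *Nanos3* was -0.0087 with quantile scaling in the ESC comparison of 4-OHT. Without single libraries, *Dppa3* was -0.39 to 1.11 in control EB against ESC, *Tfap2c* -0.37 to 0.73 and *Kit* -0.45 to 0.26 in the same change with 4-OHT, *Tfap2c* -0.74 to 0.35 and *Dnd1* -0.14 to 0.049 in the ESC comparison, and *Prdm1* -0.11 to 0.36, *Nanos3* -0.28 to 0.73 and *Dppa3* -0.74 to 0.77 in the EB minus ESC effect.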
